A study of Homo sapiens with 16 samples.

Results

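The genes described here are 8 immune checkpoint genes of tumour cells, chosen by name: CD274 (PD-L1), PDCD1LG2 (PD-L2), CMTM6, NT5E (CD73), PVR (CD155), NECTIN2 (CD112), CD276 (B7-H3) and CD47. Their Ensembl identifiers were matched to GENCODE 29 symbols, and all 8 had a row among the 28951 genes of the deposited table. All 8 also passed the filter on low values, which left 23968 genes to test. RNA came from 4 human lines of non-small cell lung cancer. The series terms 2 of them responsive, H460 and H1703, and the other two non-responsive, HCC827 and H441. Each line was given either the combination of 5 µM MYCi975, a MYC inhibitor, with 25 µM TMP195, an inhibitor of class IIa histone deacetylases, or the vehicle DMSO. Treatment began 1 day after plating in RPMI with 10% fetal bovine serum and lasted 48 hours, and there were 2 libraries for each line and treatment, 16 in all. The single agents were not analysed here.

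PD-L1 and PD-L2 on a tumour cell bind PD-1 on T cells and damp their activity, and CMTM6 is a membrane protein that binds PD-L1 and keeps it from being degraded in lysosomes. CD73 makes extracellular adenosine, which restrains T cells, while PVR and NECTIN2 bind both the inhibitory receptor TIGIT and the activating receptor CD226. CD276 is an inhibitory member of the B7 family, and CD47 binds SIRPα on macrophages and holds back phagocytosis.

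A level is given in normalised reads, which are reads recovered from the deposited values and divided by the size factor of the library. A change is the difference of combination and vehicle means of the deposited log2 values, 2 libraries each, with its standard error in the limma fit. It is positive where the combination had more RNA, and a gene was called when its Benjamini-Hochberg adjusted p was under 0.05. The deposited scale is compressed at low counts, so that the change of a gene of few reads is smaller than the ratio of its reads. The libraries held 8493271 to 13604150 reads in the listed genes, and replicates correlated at 0.976 to 0.985 across genes, which are not independent replicates. The labels do not state whether replicate libraries were separate cultures, so p-values reflect only how these libraries vary, pooled over the 8 groups. In RNA from whole cultures a larger share of cells with a transcript and more transcript per cell cannot be told apart.

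The promoters of 3 genes are shown because these genes had the largest changes among the members with a promoter entry: CD274 and NT5E with rises, CD276 with falls. The sequences are from RefSeq (GRCh38.p14), which matched 7 of the 8 members. Each is the 250 bases before the RefSeq start, all on the plus strand. These starts differ from the GENCODE gene starts given below. The NT5E and CD276 sequences lie inside the GENCODE genes, and that of CD274 runs past its GENCODE start. In CD274 (chr9:5450292-5450541) capitals mark the interferon response word (GAAA, any 2 bases, GAAA), matched at 2 overlapping places on the reverse strand, and the STAT word TTCNNNGAA. In NT5E (chr6:85449833-85450082) they mark TGACGT, the core of the cAMP response element, and in CD276 (chr15:73684133-73684382) the GC box GGGCGG, with 7 matches, some of which overlap. GC boxes in the other promoters shown are not capitalised.
CD274: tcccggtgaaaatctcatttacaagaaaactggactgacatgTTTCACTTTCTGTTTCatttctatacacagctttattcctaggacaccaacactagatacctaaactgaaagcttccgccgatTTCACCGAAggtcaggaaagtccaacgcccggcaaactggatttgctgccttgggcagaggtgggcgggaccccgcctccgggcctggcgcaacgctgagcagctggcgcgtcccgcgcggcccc
NT5E: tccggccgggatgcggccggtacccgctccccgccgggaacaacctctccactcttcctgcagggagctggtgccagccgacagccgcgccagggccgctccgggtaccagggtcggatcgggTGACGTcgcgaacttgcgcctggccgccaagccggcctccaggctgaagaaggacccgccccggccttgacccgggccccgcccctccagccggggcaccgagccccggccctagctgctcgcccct
CD276: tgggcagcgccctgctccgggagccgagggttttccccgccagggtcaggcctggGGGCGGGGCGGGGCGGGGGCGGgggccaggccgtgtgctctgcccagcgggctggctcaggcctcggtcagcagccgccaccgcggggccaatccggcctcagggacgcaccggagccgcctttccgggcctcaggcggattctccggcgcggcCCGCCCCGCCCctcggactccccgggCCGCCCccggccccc

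Words were searched on both strands in windows of 300 bases, 250 before and 50 after each RefSeq start, over 35116 RefSeq promoters. Distances here are from the RefSeq start. Among the promoters of members the interferon response word stood in that of CD274 alone, with first bases 208 and 202 before the start, and 3.57% of all promoters held it. The STAT word began 125 bases before the start of CD274 and was in 7.66% of all promoters. The core TGACGT began 127 bases before the start of NT5E and was in 7.98% of all promoters; NECTIN2 had 2 matches just after its start, which overlap as the full element TGACGTCA, found in 1.85%. The GC box was in 45.0% of all promoters and in those of all matched members except PVR. No matched member held CACGTG, the E-box that MYC can bind (7.26% of promoters), the AP-1 word TGANTCA (7.71%), TGATGNAA (3.62%), which ATF4 can bind, or the MEF2 word (CTATTT, any base, TAG; 0.353%). A match only describes these letters, and a missing match says only that they are not in this window.

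With the combination, CD274 mRNA was called higher in every line and NT5E mRNA in H460, H1703 and H441. PDCD1LG2 mRNA was called higher in H460, in H1703 on 3 reads, and in the mean of 4 lines. CD276 mRNA was lower in the responsive lines, and over the 4 lines PVR mRNA changed by 0.13 to 0.50 and CD47 mRNA by -0.39 to -0.20 on the log2 scale. In H460 4 of 8 members were called higher and 2 lower, where 14.1% and 12.6% of all genes tested were called higher and lower. In H1703 3 were higher and 4 lower, against 17.9% and 17.6% of all genes. In HCC827 2 were higher and none lower, against 4.42% and 5.5%, and in H441 3 were higher and none lower, against 2.77% and 1.86%. Over the mean of 4 lines 4 members were higher and 4 lower, against 18.4% and 16.7% of all genes, and the median change of members was 0.05, the same as that of all genes. CD274 was the member called higher in all 4 lines, which held for 121 genes or 0.505% of those tested. For CD274 this rests on the HCC827 call (limma adjusted p = 0.0491), which was lost with median centring, other filters or voom. The libraries of the combination and vehicle were apart for 6 members in H460, 7 in H1703, 6 for HCC827 and 7 for H441. This held for 71.3%, 86.2%, 61.1% and 58.0% of all genes tested in H460, H1703, HCC827 and H441, so it says little about the members.

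**Figure D1:**
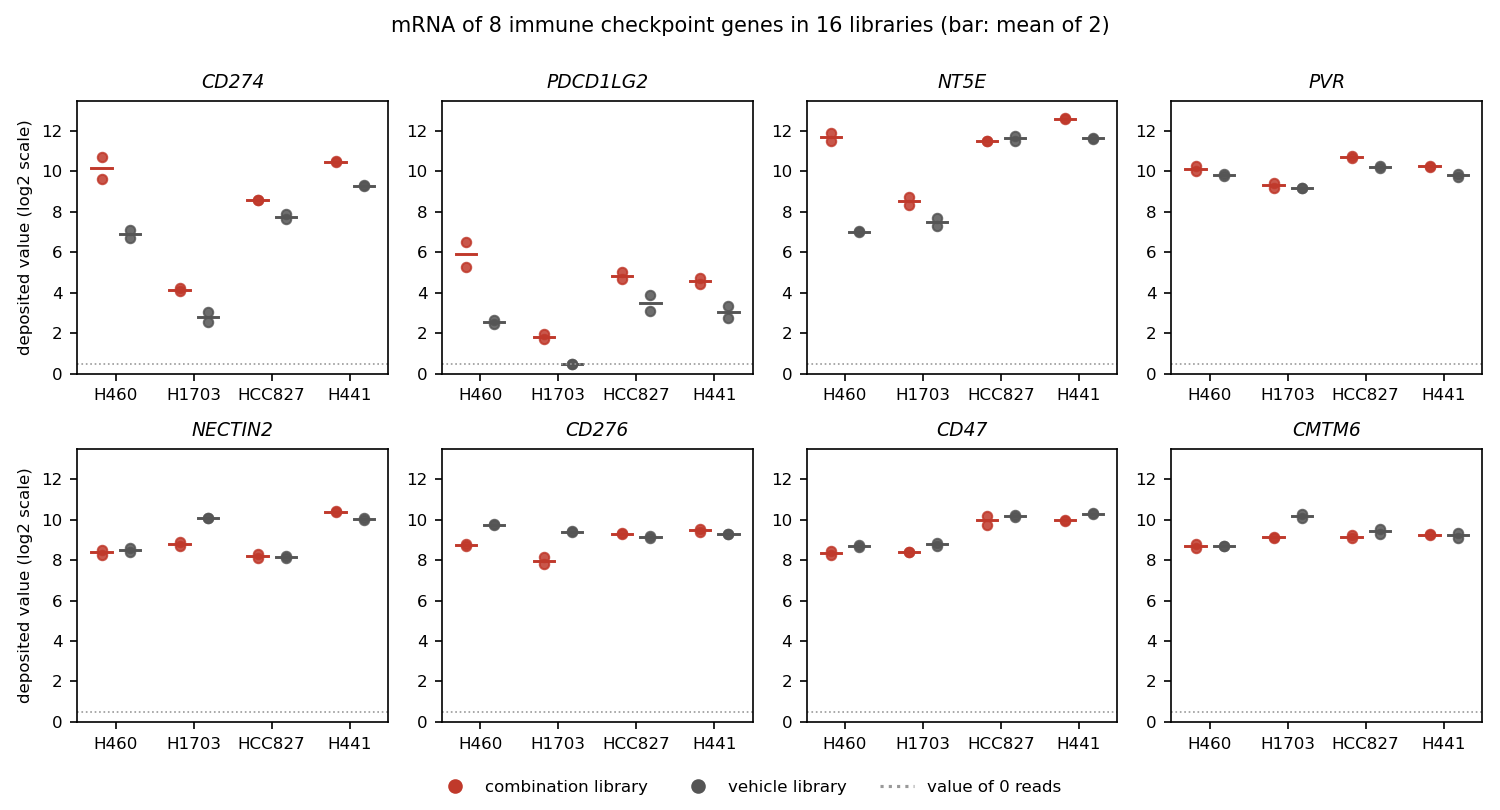
Deposited values (vertical axis, log2 scale) of the 8 genes in each of the 16 libraries by line, with combination libraries as red points left of the grey vehicle libraries, bars for the mean of 2 libraries and a dotted line at the value of 0 reads. CD274 points of the combination lie above those of vehicle in every line, and NT5E in H460 shows the widest gap.

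CD274 encodes PD-L1 (ENSG00000120217.14, GRCh38 chromosome 9, 5450503 to 5470566, plus strand). Its mRNA in H460 was 784 and 1704 normalised reads with the combination, against 102 and 137 with vehicle. In H441 it was 1416 and 1445 with the combination, against 625 and 634 with vehicle. In HCC827 it was 382 and 379 with the combination, against 234 and 199 with vehicle. The groups did not overlap in any of these lines, and the H460 combination libraries were the pair that lay far apart. H1703 had hardly any CD274 RNA, with 16.3 and 14.2 normalised reads with the combination (33 reads) against 5.84 and 3.50 with vehicle (11 reads).

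CD274 rose in every line. Its change was 3.26 ± 0.25 for H460 (limma adjusted p = 1.2e-08), 1.34 ± 0.25 for H1703 (0.000328), 0.81 ± 0.25 for HCC827 (0.0491) and 1.18 ± 0.25 for H441 (0.00997). In reads, the ratio of combination to vehicle was 10.1 for H460 (95% counting interval 8.87 to 11.4), 3.37 for H1703 (1.66 to 7.38), 1.77 for HCC827 (1.56 to 2.0) and 2.27 for H441 (2.12 to 2.44). These intervals cover counting error only. The mean change of 4 lines was 1.65 ± 0.13 (adjusted p = 6.03e-09), rank 74 among the rises of 23968 genes. The HCC827 call was lost when any library of H1703 Combo, HCC827 or H441 was left out, with changes of 0.70 to 0.92 and adjusted p up to 0.233 (without HCC827 Vehicle 2), and the H441 call was lost without any of the H441 libraries, with adjusted p up to 0.0662. The HCC827 call was also lost with median centring (adjusted p = 0.0661), no filter on low values (0.0577), a stricter one (0.0534) and limma without its trend and robust settings (0.187). Those settings also ended the H441 call (adjusted p = 0.106), as did a fit on the H441 libraries alone (0.0809). With limma voom on the recovered reads CD274 passed in H460 and in the mean of 4 lines, and not in H1703 (adjusted p = 0.525), HCC827 (0.327) or H441 (0.0600).

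PDCD1LG2 encodes PD-L2, the other ligand of PD-1, and starts 40003 bases past the end of CD274 (ENSG00000197646.7, chromosome 9, 5510570 to 5571254, plus strand). Per kilobase of exon it was the lowest of the members in every group. In H460 it had 36.7 and 87.8 normalised reads with the combination, against 3.91 and 3.15 with vehicle. In HCC827 it had 29.4 and 23.1 with the combination, against 12.1 and 6.08 with vehicle, and in H441 19.1 and 23.6 with the combination, against 7.73 and 4.34 with vehicle. In H1703 there were 3 reads with the combination and 0 with vehicle, too few for a fold change. Libraries of the combination lay above those of vehicle in each line.

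PDCD1LG2 rose in H460 by 3.32 ± 0.47 (limma adjusted p = 1.47e-05) and passed in H1703 (1.35 ± 0.47, adjusted p = 0.0288) on those 3 reads. Changes of 1.35 ± 0.47 in HCC827 (adjusted p = 0.0754) and 1.51 ± 0.47 in H441 (0.0709) did not pass, while the mean of 4 lines did (1.88 ± 0.23, adjusted p = 1.89e-06). The read ratio of combination to vehicle was 17.4 in H460 (95% counting interval 8.55 to 41.4), 2.93 in HCC827 (1.64 to 5.51) and 3.57 in H441 (1.82 to 7.65). The H1703 call was lost without any of the 4 H1703 libraries, with adjusted p up to 0.123 (without H1703 Combo 2), and with each library centred on its median (0.0778), quantile normalisation (0.0885), the H1703 libraries alone (0.0916) or voom (0.130). The H441 change passed when H460 Combo 1 was left out (adjusted p = 0.0479).

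CMTM6, the membrane partner of PD-L1, is on chromosome 3 (ENSG00000091317.8, 32481312 to 32503408, minus strand). In H1703 it had 550 and 570 normalised reads with the combination, against 1073 and 1254 with vehicle, a fall of 1.05 on the log2 scale (SE 0.11, limma adjusted p = 3.41e-07). The mean change of 4 lines was -0.33 ± 0.06 (limma adjusted p = 0.0001), and H1703 was the only single line with a call. In H460 and H441 the groups overlapped. In HCC827 both combination libraries lay below both vehicle libraries, at a read ratio of 0.807 (95% counting interval 0.743 to 0.876). CMTM6 had 384 and 449 with the combination against 413 and 420 with vehicle in H460, 595 and 535 with the combination against 634 and 747 with vehicle in HCC827, and 592 and 614 with the combination against 550 and 643 with vehicle in H441. Changes were -0.00 in H460 (adjusted p = 1), -0.29 in HCC827 (adjusted p = 0.130) and 0.02 in H441 (1). The gene shares 1756 bases with CMTM7 on the opposite strand, which had at most 243 normalised reads, and the strand setting of the counting was not given in the sources used here.

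Set against CMTM6 per kilobase of exon, CD274 was at 2.19 and 4.07 times its level in H460 with the combination, against 0.265 and 0.350 with vehicle. In H441 the ratio was 2.57 and 2.53 with the combination, against 1.22 and 1.06 with vehicle. In HCC827 it was 0.690 and 0.761 with the combination, against 0.396 and 0.287 with vehicle. CD274 RNA thus lay above CMTM6 RNA in H460 with the combination and below it with vehicle, above it in both H441 groups and below it in HCC827. In H1703 the ratio was 0.0319 and 0.0267 with the combination, against 0.00585 and 0.003 with vehicle, on few CD274 reads.

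NT5E encodes CD73, the enzyme that turns extracellular AMP into adenosine (ENSG00000135318.12, chromosome 6, 85449584 to 85495791, plus strand). In H460 it had 2950 and 3817 normalised reads with the combination, against 126 and 130 with vehicle. In H1703 it had 320 and 429 with the combination, against 156 and 205 with vehicle, and in H441 6169 and 6276 with the combination, against 3181 and 3158 with vehicle. HCC827 differed: 2924 and 2870 with the combination, against 2959 and 3458 with vehicle, both slightly below the vehicle libraries. H460 vehicle cells thus had the lowest NT5E level of the 8 groups, while H460 cells with the combination overlapped HCC827 and H441 vehicle cells.

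NT5E rose by 4.68 ± 0.14 in H460 (limma adjusted p = 6.79e-15), rank 13 among the rises of 23968 genes in that line. It also rose in H1703 (1.04 ± 0.14, adjusted p = 3.87e-06) and H441 (0.97 ± 0.14, 0.000262), and its change in HCC827 was -0.14 ± 0.14 (0.610). The read ratio of combination to vehicle was 26.2 in H460 (95% counting interval 23.3 to 29.6), 2.08 in H1703 (1.85 to 2.33) and 1.96 in H441 (1.90 to 2.03). Fitted on the H441 libraries alone, the H441 change had an adjusted p of 0.0809.

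PVR, the CD155 ligand of TIGIT and CD226, lies on chromosome 19 (ENSG00000073008.15, 44643798 to 44663583, plus strand). In HCC827 it had 1601 and 1759 normalised reads with the combination, against 1226 and 1139 with vehicle. In H441 it had 1201 and 1236 with the combination, against 944 and 853 with vehicle, and in H460 1021 and 1246 with the combination, against 934 and 881 with vehicle. In H1703 the libraries overlapped, at 688 and 581 with the combination against 581 and 576 with vehicle. PVR was thus higher with the combination in 3 lines, with read ratios of combination to vehicle of 1.25 in H460, 1.43 in HCC827 and 1.36 in H441.

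PVR rose by 0.31 ± 0.10 in H460 (limma adjusted p = 0.0278), 0.50 ± 0.10 in HCC827 (0.003) and 0.44 ± 0.10 in H441 (0.0157), and its change in H1703 was 0.13 ± 0.10 (0.376). With each library centred on its median, which lowers the median change of all genes by 0.19 in H460 and 0.24 in H1703, PVR changed by 0.12 in H460 (adjusted p = 0.516) and -0.12 in H1703 (0.504), while with quantile normalisation the H1703 change passed (0.27, 0.0253). Without the trend and robust settings no PVR call in a single line stood, with adjusted p of 0.124 in H460, 0.0607 in HCC827 and 0.145 in H441. On the line's own libraries the adjusted p was 0.169 in H460 and 0.137 in H441. The mean PVR change of 4 lines, 0.35 ± 0.05 (limma adjusted p = 1.8e-05), passed in every other setting. That of the non-responsive lines (0.47 ± 0.07, 0.000175) also did, with 0.0182 without trend and robust settings. The call was lost in H460 without H460 Combo 2 (0.17, adjusted p = 0.319), Vehicle 1 (0.36, 0.0605) or Vehicle 2 (0.27, 0.156), in HCC827 without HCC827 Combo 2 (0.44, 0.0610), and in H441 without H441 Combo 1 (0.46, 0.0726), Combo 2 (0.42, 0.115) or Vehicle 2 (0.37, 0.167). PVR overlaps the antisense gene AC243964.2 over 19786 bases and the same-strand gene CEACAM19 over 1306 bases, of which CEACAM19 had at most 69.5 normalised reads.

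NECTIN2 encodes CD112, another ligand of TIGIT and CD226 (ENSG00000130202.10, chromosome 19, 44846175 to 44889228, plus strand). In H1703 it had 412 and 471 normalised reads with the combination, against 1096 and 1075 with vehicle. In H441 it had 1312 and 1375 with the combination, against 993 and 1085 with vehicle. The groups overlapped in H460, with 304 and 365 with the combination against 337 and 383 with vehicle, and in HCC827, with 267 and 314 with the combination against 287 and 269 with vehicle. H1703 thus stood apart from the other lines. NECTIN2 fell in H1703 by 1.30 on the log2 scale (SE 0.11, limma adjusted p = 1.89e-08), a read ratio of combination to vehicle of 0.412 (95% counting interval 0.382 to 0.443). Its change was 0.37 ± 0.11 in H441 (adjusted p = 0.0686), -0.11 ± 0.11 in H460 (0.554) and 0.06 ± 0.11 in HCC827 (0.850). The H441 change passed with voom (adjusted p = 0.00833), with a stricter filter on low values (0.0446), and without H460 Combo 1 (0.0404) or Combo 2 (0.0409). NECTIN2 overlaps the antisense gene AC011481.2 over 7202 bases.

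CD276 encodes the B7 family protein B7-H3 (ENSG00000103855.18, chromosome 15, 73683966 to 73714518, plus strand). In H460 it had 418 and 437 normalised reads with the combination, against 852 and 870 with vehicle, and in H1703 222 and 278 with the combination, against 685 and 661 with vehicle. In HCC827 it had 618 and 641 with the combination, against 576 and 551 with vehicle, and in H441 729 and 679 with the combination, against 618 and 618 with vehicle. CD276 was thus lower in both responsive lines and, by a small step, above vehicle in both non-responsive lines, and no groups overlapped. It fell by 1.01 in H460 (limma adjusted p = 1.85e-07) and by 1.43 in H1703 (9.98e-10), and its changes of 0.16 in HCC827 (0.394) and 0.19 in H441 (0.371) did not pass, with a standard error of 0.10 each. In reads the ratio of combination to vehicle was 0.495 in H460 (95% counting interval 0.455 to 0.538) and 0.380 in H1703 (0.344 to 0.418). No library left out and no other setting ended the H460 or H1703 call.

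CD47, the ligand of SIRPα, is on chromosome 3 (ENSG00000196776.16, 108043094 to 108091862, minus strand). In H460 it had 299 and 348 normalised reads with the combination, against 422 and 398 with vehicle, and in H1703 339 and 330 with the combination, against 415 and 466 with vehicle. In H441 it had 985 and 1009 with the combination, against 1225 and 1283 with vehicle, and in HCC827 1160 and 858 with the combination, against 1190 and 1111 with vehicle. Only HCC827 overlapped, and the read ratio of combination to vehicle lay between 0.751 in H1703 and 0.864 in HCC827. CD47 fell in H460 (-0.34 ± 0.12, limma adjusted p = 0.0360), H1703 (-0.39 ± 0.12, 0.0130) and the mean of 4 lines (-0.32 ± 0.06, 0.000228), while -0.33 ± 0.12 in H441 (0.126) and -0.20 ± 0.12 in HCC827 (0.338) did not pass.

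Leaving out 1 library ended CD47's H460 call for H460 Combo 1 (-0.23, adjusted p = 0.249), Vehicle 1 (-0.30, 0.180) and Vehicle 2 (-0.38, 0.0748), and its H1703 call for H1703 Combo 2 (-0.37, 0.0679) and Vehicle 2 (-0.31, 0.134). The H460 call of CD47 was also lost with voom (adjusted p = 0.0624), on the H460 libraries alone (0.127) and without trend and robust settings (0.133), which ended the H1703 call too (0.0701). With voom the H441 change passed (-0.33, 0.0450). Without HCC827 Combo 1 the HCC827 change of CD47 passed (-0.42, adjusted p = 0.0357), and without HCC827 Combo 2 it was 0.01.

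**Figure D2:**
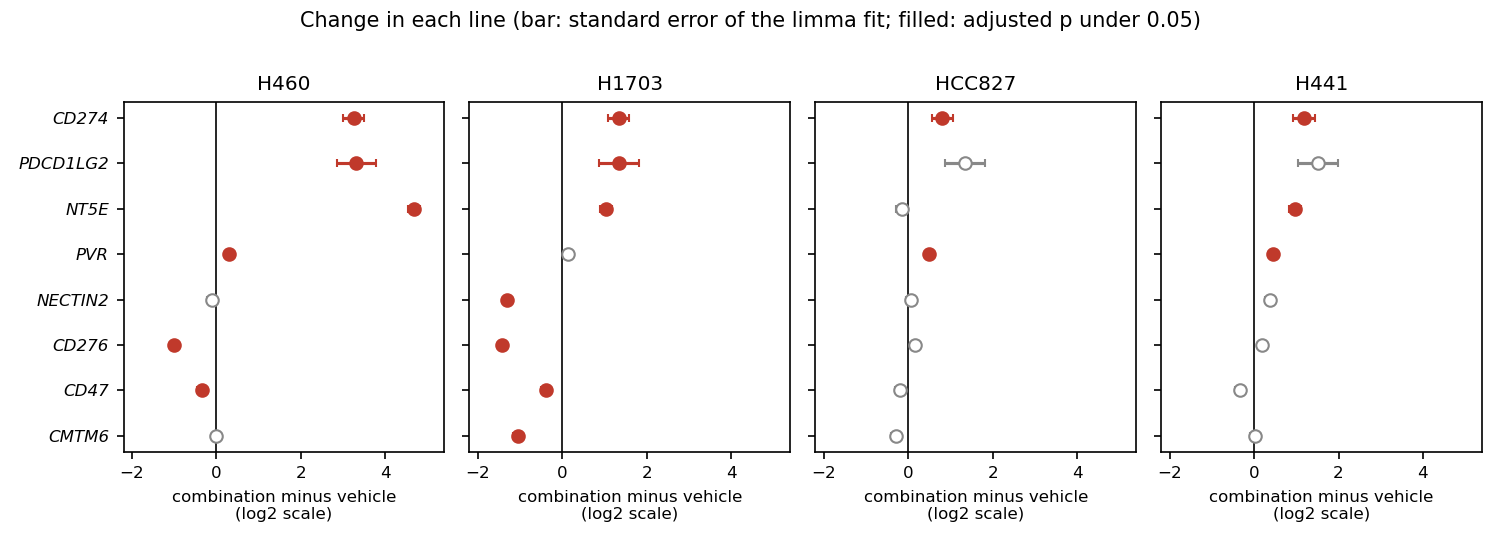
Change of each gene in each line (horizontal axis, combination minus vehicle, log2 scale) with bars for the standard error of the limma fit, hidden where shorter than the point, and filled points for adjusted p under 0.05. CD274 is filled and right of 0 in all 4 lines, NT5E in H460 is farthest right at 4.68, and CD276 is left of 0 in H460 and H1703.

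The series sets responsive against non-responsive lines, and the difference between the mean changes of these classes was tested in the same fit. Each class has 2 lines, which are not replicates of a class. Of the 8 members 2 changed higher and 3 lower in the responsive lines relative to the non-responsive lines, against 11.2% and 12.1% of all genes. CD274 had a mean change of 2.30 in the responsive lines and 1.00 in the non-responsive lines, a difference of 1.30 ± 0.25 (limma adjusted p = 0.000765). NT5E had 2.86 in the responsive lines and 0.41 in the non-responsive lines, a difference of 2.45 ± 0.14 (1.6e-10). CD276 had -1.22 in the responsive lines and 0.17 in the non-responsive lines, a difference of -1.39 ± 0.10 (5.83e-09). NECTIN2 (-0.92 ± 0.11, 5.11e-06) and CMTM6 (-0.39 ± 0.11, 0.0151) also differed, and PDCD1LG2 (0.91, 0.185), CD47 (-0.10, 0.612) and PVR (-0.25, 0.0864) did not pass. All 8 members were called in the mean of the responsive lines and 5 in that of the non-responsive lines, where 38.5% and 12.3% of all genes were called. In the responsive mean the CD274 call was lost with voom (2.47, adjusted p = 0.0681). The PVR call there (0.22) was lost with median centring (0.0022, adjusted p = 0.988), without trend and robust settings (0.0946) and without H460 Combo 2 (0.15, 0.115), H460 Vehicle 2 (0.20, 0.0721), H1703 Combo 1 (0.16, 0.123) or H1703 Vehicle 2 (0.22, 0.0558). In the non-responsive mean the NT5E call was lost without HCC827 Vehicle 1 (0.36, adjusted p = 0.0503) and without trend and robust settings (0.0936). The CD47 call there (-0.27) was lost with median centring (adjusted p = 0.0609), no filter (0.0538), without trend and robust settings (0.167), and without H1703 Combo 2 or any HCC827 or H441 library except HCC827 Combo 1, at -0.16 to -0.29 (adjusted p up to 0.243).

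Pairs of lines show where these class differences lay. Over 6 pairs of lines and 8 members, 21 of 48 differences in response passed, where 19.1% of genes passed for H460 and H1703, 14.0% for H460 and HCC827, 15.8% for H460 and H441, 20.6% for H1703 and HCC827, 22.9% for H1703 and H441, and 2.01% for HCC827 and H441. For CD274 the H460 response exceeded that of H1703 by 1.92, of HCC827 by 2.45 and of H441 by 2.08 (highest adjusted p = 0.000707). The CD274 response of H1703 differed from that of HCC827 by 0.53 ± 0.36 (adjusted p = 0.345) and from that of H441 by 0.16 ± 0.36 (0.818), and did not pass. NT5E in H460 likewise exceeded the other 3 lines, by 3.64, 4.83 and 3.71, while H1703 and H441 differed by 0.07 ± 0.19 (adjusted p = 0.861). For NECTIN2 the line that stood apart was H1703, with H460 minus H1703 at 1.19, H1703 minus HCC827 at -1.35 and H1703 minus H441 at -1.67. For CMTM6 the same 3 differences were 1.04, -0.76 and -1.07. For CD276 the response of each responsive line was below that of each non-responsive line, and all 4 of these differences passed, at -1.17, -1.19, -1.58 and -1.61 (highest adjusted p = 1.1e-05). The changes of NECTIN2, PVR and CD47 also lay lower in each responsive line than in each non-responsive line, but 3 of the 4 differences passed for NECTIN2 and none for PVR or CD47.

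Leaving out H1703 Vehicle 2 (-0.34, adjusted p = 0.0547), HCC827 Vehicle 1 (-0.33, 0.0513) or H441 Vehicle 1 (-0.34, 0.0507) ended the CMTM6 class difference, as did limma without trend and robust settings (0.0789). With voom the CD274 class difference was 1.47 (adjusted p = 0.355). With median centring, which lowers the median class difference of all genes by 0.21, the PVR class difference was -0.46 (adjusted p = 0.00487). PVR also passed without H460 Combo 2 (-0.32, 0.0180) or H1703 Combo 1 (-0.31, 0.0369).

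Levels in the vehicle cultures also differed between lines. Of the 48 comparisons of vehicle levels between 2 lines 37 passed, where 46.4% of genes passed for H460 and H1703, 50.3% for H460 and HCC827, 54.2% for H460 and H441, 50.7% for H1703 and HCC827, 52.1% for H1703 and H441, and 44.7% for HCC827 and H441. Between the classes 2 members were higher and 5 lower in responsive than in non-responsive vehicle cells, against 28.8% and 27.6% of all genes. NT5E was lower in the responsive lines (-4.37 on the log2 scale), at 128 ± 2.54 normalised reads in H460 and 181 ± 35.0 in H1703, against 3209 ± 353 in HCC827 and 3169 ± 16.3 in H441 (SD, n = 2). CD274 (-3.67), CD47 (-1.49) and PVR (-0.51) were also lower in the responsive lines, and PDCD1LG2 (-1.75) on few reads. CD274 was below HCC827 by far less in H460 (-0.86) than in H1703 (-4.95). For PDCD1LG2, H460 minus HCC827 (-0.92, limma adjusted p = 0.112) and H460 minus H441 (-0.49, 0.402) did not pass. For PVR, H460 minus H441 (0.02, 0.923) did not pass either. CD276 (0.37) and NECTIN2 (0.21, adjusted p = 0.0281, the highest of the 7) were higher in the responsive lines, and CMTM6 (0.12, adjusted p = 0.217) did not pass, except with median centring (0.20, 0.0402). For NECTIN2 the lines of a class did not go together: vehicle cells had 360 ± 32.9 normalised reads in H460 and 1086 ± 14.3 in H1703, against 278 ± 12.6 in HCC827 and 1039 ± 65.2 in H441. H460 minus H441 was -1.52 on the log2 scale (adjusted p = 4.61e-10), and H1703 minus H441 was 0.06 (0.673). The NECTIN2 class call was lost without trend and robust settings (adjusted p = 0.0859) and without H460 Vehicle 2 (0.17, adjusted p = 0.121), H1703 Vehicle 1 (0.21, 0.0731), H1703 Vehicle 2 (0.22, 0.0562), HCC827 Vehicle 2 (0.19, 0.0887) or H441 Vehicle 1 (0.18, 0.106).

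The order of the 8 groups by mean level differed between members. CD274 was highest in H441 with the combination, at 1431 ± 20.4 normalised reads (SD, n = 2 here and below), and H460 with the combination, at 1244 ± 650, whose libraries overlapped. Then came H441 vehicle (629 ± 6.09), HCC827 with the combination (381 ± 2.31), HCC827 vehicle (217 ± 24.3) and H460 vehicle (119 ± 24.8). H1703 was lowest with the combination (15.3 ± 1.52) and with vehicle (4.67 ± 1.65), and no other neighbours overlapped. NT5E was highest in H441 with the combination (6223 ± 75.3) and lowest in H460 vehicle (128 ± 2.54), and H460 with the combination (3383 ± 613), HCC827 vehicle and H441 vehicle overlapped in that order. CD276 was highest in H460 vehicle (861 ± 12.7) and lowest in H1703 with the combination (250 ± 39.6). CD47 separated the lines more than the treatments, with all 8 H441 and HCC827 libraries at 858 to 1283 and all 8 H460 and H1703 libraries at 299 to 466. The highest line mean of CD274 was 93.5 times the lowest with the combination and 135 times with vehicle. For CMTM6 this ratio was 1.45 with the combination and 2.80 with vehicle, for NT5E 16.6 with the combination and 25.1 with vehicle, and for CD276 2.82 with the combination and 1.53 with vehicle.

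Levels of different genes can be set side by side only per length, here in normalised reads per kilobase of exon. In H460 with the combination NT5E (746 ± 135), PVR (322 ± 45.4) and CD274 (303 ± 158) were the highest members, against PVR (258 ± 10.7), CD276 (155 ± 2.29) and NECTIN2 (96.0 ± 8.79) in H460 vehicle cells. CD274 and NT5E ranked 6 and 7 of 8 there, at 29 ± 6.05 and 28.2 ± 0.561. In H1703 with the combination PVR (180 ± 21.6) and CMTM6 (127 ± 3.17) led, against NECTIN2 (290 ± 3.82) and CMTM6 (264 ± 29) with vehicle. NT5E and PVR led in HCC827 under both treatments, and NT5E and NECTIN2 led in H441 under both.

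**Figure D3:**
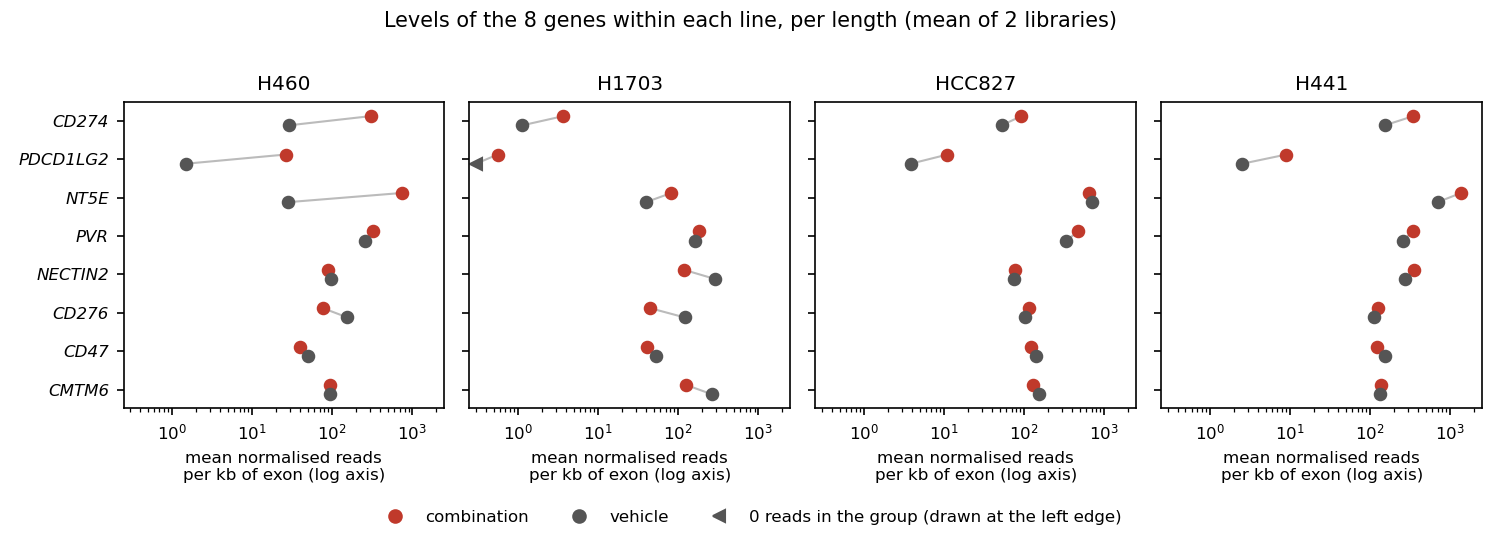
Mean normalised reads per kilobase of exon (horizontal log axis) of the 8 genes in each line, with red points for the combination above grey points for vehicle, joined by a line, and a triangle at the left edge for 0 reads. NT5E and CD274 lie at 746 and 303 in H460 with the combination, among the 3 highest members, against 28.2 and 29 with vehicle.

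The list of 25 genes of CD274 transcription and interferon gamma signalling moved in both directions. Over the mean of 4 lines 10 were higher, 8 lower and 7 not called, with a median of 0.01 against 0.05 for all genes. With each library centred on its median 7 were higher and 11 lower. In H460 12 were higher and 3 lower, and in H1703 8 higher and 8 lower. In HCC827 1 was higher and 4 lower, and in H441 3 higher and 1 lower. Shares of all genes called higher and lower were 14.1% and 12.6% in H460, and 17.9% and 17.6% in H1703. They were 4.42% and 5.5% in HCC827, 2.77% and 1.86% in H441, and 18.4% and 16.7% in the mean of 4 lines. Whether the list differs from all genes was not tested. AP-1 genes were among the rises: JUN by 1.70 in H460 and 1.39 in H1703, and FOSL1 by 1.24 in H460, 0.72 in H1703 and 1.18 in H441. ZFP36, whose protein speeds the decay of mRNAs with AU-rich elements, rose by 2.56 in H460 and 1.12 in H1703, where the call was lost without H1703 Combo 1 (1.06, adjusted p = 0.0653) or Vehicle 2 (1.07, 0.0588). JAK2, a kinase of the interferon gamma receptor, rose by 0.71 ± 0.16 in H460 (limma adjusted p = 0.00163) and 0.69 ± 0.16 in H1703 (0.00147), with 0.10 in HCC827 and 0.16 in H441.

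IRF1 mRNA fell in H1703, and MYC mRNA rose there and in HCC827. IRF1, the transcription factor that binds the interferon response word, had 199 and 182 normalised reads in H1703 with the combination, against 589 and 540 with vehicle, a fall of 1.55 (limma adjusted p = 1.52e-07). IRF1 changed by -0.43 in H460 (0.0493), a call lost in 14 of 16 fits with 1 library left out and with voom (0.181), by -0.17 in HCC827 and by -0.05 in H441. Of the receptor chains IFNGR1 rose in H460 (0.50, adjusted p = 0.0212), and IFNGR2 fell in H1703 (-1.10, 4.34e-06) and rose in H441 (0.81, 0.00222; 0.0899 on the H441 libraries alone). MYC mRNA, of the protein that MYCi975 targets, changed by 1.34 in H1703 (1e-08) and 0.60 in HCC827 (0.00164), with -0.06 in H460 (0.774) and 0.26 in H441 (0.222).

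Some of these calls rest on single libraries. IFNGR1 in H460 had 0.36 without H460 Combo 1 (adjusted p = 0.185), 0.55 without Vehicle 1 (0.0544) and 0.45 without Vehicle 2 (0.116), and MYC in HCC827 0.41 without HCC827 Combo 2 (0.0650). Without trend and robust settings that MYC change had an adjusted p of 0.0564, and 0.0527 on the HCC827 libraries alone. IRF1 in H460 was -0.16 without H460 Vehicle 1 (adjusted p = 0.585) and -0.32 without H460 Combo 2 (0.266).

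**Figure D4:**
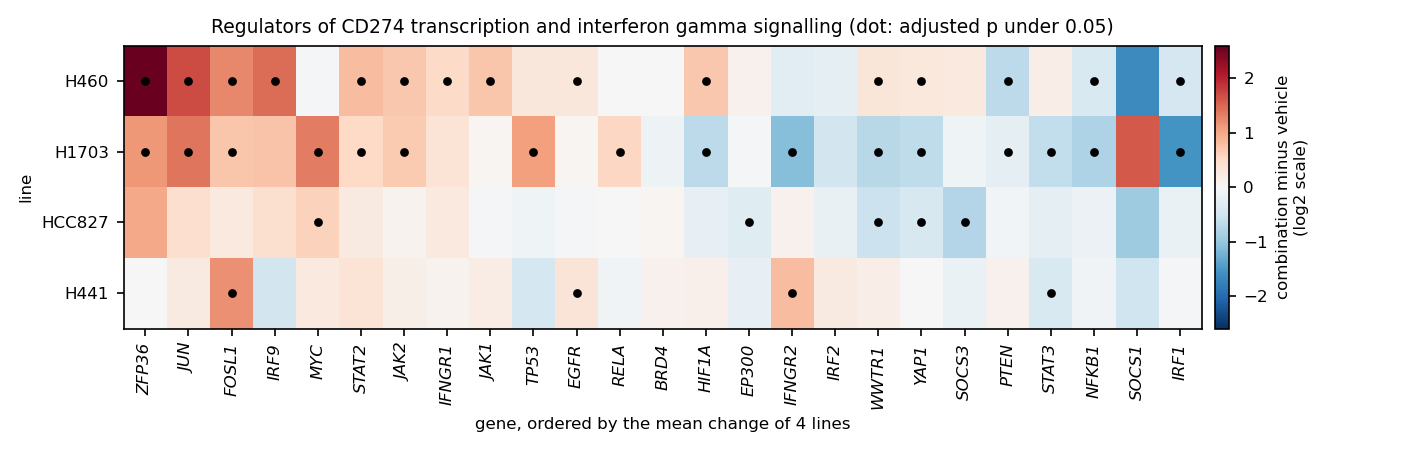
Changes (colour, combination minus vehicle, log2 scale) of 25 genes of CD274 transcription and interferon gamma signalling in each line, ordered by the mean change of 4 lines, with dots for adjusted p under 0.05. ZFP36, JUN and FOSL1 at the left are red in H460 and H1703, IRF1 at the right is deepest blue in H1703, and few cells of HCC827 and H441 carry a dot.

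Of 25 genes listed for PD-L1 protein stability and trafficking 4 were higher and 11 lower in the mean of 4 lines. The median was -0.15 against 0.05 for all genes. In H460 5 were higher and 9 lower, and in H1703 none higher and 12 lower. Of all genes 14.1% were higher and 12.6% lower in H460, 17.9% and 17.6% in H1703, and 18.4% and 16.7% in the mean of 4 lines. Whether the list differs from them was not tested. Median centring gave 2 higher and 13 lower in the mean of 4 lines. USP5, a deubiquitinase, fell in H460 (-0.53), H1703 (-1.36) and HCC827 (-0.35, adjusted p = 0.0261), and the HCC827 call was lost without any 1 of the HCC827 libraries (-0.29 to -0.41, adjusted p up to 0.208). ZDHHC3, a palmitoyltransferase, fell in H460 (-0.45), H1703 (-0.94) and HCC827 (-0.38, 0.0230), and that last call was lost without HCC827 Combo 1 (-0.38, 0.0864), Combo 2 (-0.39, 0.111) or Vehicle 2 (-0.30, 0.201). DCBLD2, a membrane receptor, rose by 1.93 in H460 and 0.43 in H441 (adjusted p = 0.00668), where the call was lost without H441 Combo 2 (0.41, 0.0773) or Vehicle 2 (0.37, 0.109). B3GNT3, a glycosyltransferase, passed in H460 (1.86) on 5 reads with the combination and 0 with vehicle, and not on the H460 libraries alone (adjusted p = 0.0892). The list holds genes that raise PD-L1 protein and genes that lower it, and also the CMTM6 relatives CMTM3, CMTM7 and CKLF. Its median thus has no direction for the protein, which was not measured.

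Other checkpoint ligands were mixed: of 39 listed 32 were tested, and 8 were higher, 5 lower and 19 not called in the mean of 4 lines, with a median of 0.01 against 0.05 for all genes. Shares of all genes called higher and lower in that mean were 18.4% and 16.7%. In H441 none of the 32 was called, where 2.77% of all genes were called higher and 1.86% lower. CD24, a ligand of Siglec-10 on macrophages, fell in H460 (-0.88), H1703 (-1.30) and HCC827 (-1.29), and had 1832 and 1477 normalised reads in HCC827 with the combination, against 3948 and 4095 with vehicle. ULBP1, a stress ligand of the activating receptor NKG2D, rose in H460, to 151 and 194 normalised reads with the combination, against 20.5 and 16.5 with vehicle, and in HCC827, to 172 and 254 with the combination, against 71.5 and 59.7 with vehicle. The HCC827 call of ULBP1 was lost without HCC827 Combo 2 (1.36, adjusted p = 0.212), Vehicle 1 (1.76, 0.0819) or Vehicle 2 (1.51, 0.130). TNFSF4 (OX40 ligand, mean change 1.51) and CEACAM1 (1.02), an adhesion protein, also rose in the mean of 4 lines, at no more than 31.9 and 70.9 normalised reads in any library.

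Around NT5E, 19 genes of the adenosine pathway were tested, of which 9 were higher and 4 lower in the mean of 4 lines, with a median of 0.20 against 0.05 for all genes. Median centring gave 7 higher and 6 lower. Without it, 18.4% of all genes were higher and 16.7% lower in the mean of 4 lines. The rises named for their mean change were at low levels: ENTPD3 (1.25) and NT5M (1.27), with 380 and 403 reads over 16 libraries, and ENTPD2 (1.5) with 29. In H460 3 of the 19 were higher and 5 lower, against 14.1% and 12.6% of all genes. Those rises were of NT5C2 (1.87), DPP4 (3.06) and AMPD3 (2.10). Over all 16 libraries of the 4 lines they had 48506, 5408 and 1153 reads, which does not give their level in H460. Normalised reads of single libraries ranged from 1296 to 9114 for NT5C2, 0 to 1052 for DPP4 and 8.77 to 252 for AMPD3. The largest fall in H460 was that of SLC29A1 (-1.69). In H1703 AMPD3 rose (1.53) and NT5C2 fell (-0.33). ALPP fell in HCC827 (-2.71) and H441 (-2.57), and its reads may be split with its near-identical copy ALPG. Around CD47, 10 genes were tested, of which 2 were higher and 4 lower in the mean of 4 lines (1 and 4 with median centring or quantile normalisation). In H1703 1 was higher and 6 lower, where 17.9% and 17.6% of all genes were higher and lower. THBS1, a secreted ligand of CD47, fell in H1703 (-2.10) and HCC827 (-0.97), and ITGAV, an integrin chain, fell in H1703 (-1.76). LRP1, a phagocytic receptor, rose by 1.54 in H460. ITGB3, another integrin chain, rose in H1703 (1.51, limma adjusted p = 0.00833), to 21.8 and 19.7 normalised reads against 8.77 and 3.50 with vehicle. Its mean change of 4 lines (0.55, 0.0490) was lost with median centring, quantile normalisation or voom, and was 0.42 to 0.69 with 1 library left out.

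CD274 and PDCD1LG2 are neighbours, so genes around them on chromosome 9 were also read. Of 12 tested 5 were higher, 1 lower and 6 not called in the mean of 4 lines, with a median of 0.16 against 0.05 for all genes. Shares of all genes called higher and lower there were 18.4% and 16.7%. PLGRKT, which starts 93 kb before CD274, changed by 0.45 to 0.68 in the 4 lines and by 0.55 ± 0.10 in their mean (limma adjusted p = 0.000276). KIAA2026 (0.36), UHRF2 (0.38), CDC37L1 (0.35) and JAK2 (0.42) also rose in the mean, and RANBP6 fell by 0.26. The 2 PD-1 ligands had means of 1.65 and 1.88, above every other tested gene of this list.

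Of 13 listed receptors of checkpoint ligands 5 had a row and 3 were tested. Some of the 13, such as CTLA4 and ICOS, are receptors of other checkpoint ligands and not of the members. SIRPA, the CD47 receptor, had 84.9 and 93.8 normalised reads in H1703 with the combination, against 221 and 197 with vehicle, a fall of 1.20 (limma adjusted p = 0.00135), and had 0 in all H441 libraries. CD226, an activating receptor of PVR and NECTIN2 usually found on T and NK cells, had 868 and 953 normalised reads in H460 with the combination, against 949 and 1083 with vehicle, and at most 28.2 in any library of the other lines. PVRIG, a NECTIN2 receptor, was at or below 17.0 in every library, with a mean change of -0.78 (adjusted p = 0.0456), a call lost in 13 of 16 fits with 1 library left out.

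Marker genes were read to check the labelled cell type. The 8 epithelial markers summed to 31655 and 36527 normalised reads in H460 with the combination, against 27831 and 28783 with vehicle, and were higher still in HCC827 and H441. In H1703 they summed to 238 and 246 with the combination, against 272 and 272 with vehicle, so that line nearly lacked them. The H460 sum did not rest on all 8 markers. CDH1 had 0 and 0 there with the combination, against 0 and 0.787 with vehicle. KRT7 had 71.4 and 38.8 in H460 with the combination, against 18.6 and 22.8 with vehicle. Of 12 immune cell markers 6 had a row, and PTPRC, CD3D, CD3E, MS4A1, FCGR3A and LYZ had none. In H1703 the 6 summed to 51.2 and 34.7 with the combination, against 7.79 and 1.4 with vehicle, and in HCC827 to 30.6 and 26.7 with the combination, against 8.48 and 12.2 with vehicle. The sums stayed within 13 to 26.7 in H460 and H441. In H1703 CD8A had 26.1 and 18.1 with the combination, against 3.90 and 0 with vehicle, and CD68 had 22.9 and 15.8 with the combination, against 1.95 and 0.701 with vehicle. These 2 made up most of that sum, and their part in the results was not tested. Of 9 endothelial and fibroblast markers 7 had a row, with sums of 6.30 to 753 over all libraries; COL1A1 fell by 1.31 in the mean of 4 lines.

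The genes whose level followed each member most closely over the 16 libraries were found among 10701 protein-coding genes with a mean of at least 50 normalised reads. Pearson's r is given as a description; the 16 libraries share lines and treatments, so that a large difference between lines alone gives a high r. CD274 was most like ANTXR2 (0.981), TSC22D3 (0.975), S100A6 (0.972), PLAUR (0.969) and MBP (0.965). With the mean of each line subtracted it was most like NDRG1 (0.982), CSNK1A1 (0.981), ERRFI1 (0.981), SRGAP1 (0.980) and PPFIBP1 (0.977). For NT5E these were CFLAR (0.970), SLFN5 (0.949) and RPS6KA2 (0.947), and for CD47 FNIP2 (0.986), PDGFRL (0.985) and SLFN12 (0.982). NECTIN2 was most like TWSG1 (0.973), OSMR (0.972) and OGFRL1 (0.969), and CD276 like RFC5 (0.950), THOP1 (0.940) and NCAPD3 (0.939). The closest genes were COQ5 (0.948), SEL1L (0.941) and KHNYN (0.934) for PDCD1LG2, DEAF1 (0.948), HKDC1 (0.935) and FAM216A (0.929) for PVR, and IL6ST (0.950), TPGS2 (0.924) and PAK2 (0.923) for CMTM6. No member was among the closest genes of another.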

How the data were processed

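RNA of 16 libraries was prepared with a NucleoSpin kit and a SMARTer stranded total RNA kit, per the labels' protocols. Trimmomatic, the aligner STAR, the build hg38 (GRCh38) and the counter featureCounts are named in the submitters' processing notes. Versions, annotation release and strand setting were not given in the sources used here. From the authors there is 1 deposited table of variance-stabilised counts on a log2 scale, whose lowest value, 0.480538, stands for 0 reads. Inverting it led to whole reads (within 0.02) for 100% of values, and normalised reads are these reads divided by the library's size factor. Counting error is wide for genes of few reads.

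The deposited log2 values were fitted with limma 3.58.1 in R 4.3.3, with 8 group means in 1 fit and trend and robust settings. Genes needed a mean at least 1 above the lowest value, which removed 4983. P-values were adjusted over the 23968 genes tested. Symbols were found for 28947 identifiers, positions for 28846. Combination and vehicle were compared in each line, over lines and between line classes, and vehicle levels between lines. Alternatives were 2 other scalings, 2 other filters, limma without trend and robust settings, fits by line, 2 replicate blocks, voom on the recovered reads, and each library left out. The method was also run on simulated data in which lines did not differ, unlike here. Its outcome is not given and no result above rests on it.

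The members and lists were chosen with earlier results of these data known. Named list genes were up to 4 called ones with the largest mean change over 4 lines, with MYC, JAK2, IRF1, IFNGR1 and IFNGR2 always. CDC37L1, RANBP6, NT5C2, DPP4, AMPD3 and SLC29A1 were added after their values were seen. The list of interferon gamma signalling was counted without a gene that is not reported here. Tables and plots used Python 3.11.15, pandas 2.3.3, numpy 2.4.6, scipy 1.17.1 and matplotlib 3.10.9.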

Additional observations from a re-analysis of the deposited data

Results flagged for a closer look

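A closer look was given to responses that differed between lines or line classes by a test of the difference itself. Of 56 such tests on the 8 genes 26 passed, 21 of them between pairs of lines. Values are differences of combination minus vehicle on the log2 scale, with limma adjusted p.

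Between responsive and non-responsive lines CD274 differed by 1.30 (0.000765), NT5E by 2.45 (1.6e-10), CD276 by -1.39 (5.83e-09), NECTIN2 by -0.92 (5.11e-06) and CMTM6 by -0.39 (0.0151). With limma voom the CD274 difference was 1.47 (0.355). For CD274, H1703 minus HCC827 (0.53, 0.345) and H1703 minus H441 (0.16, 0.818) did not pass. The CMTM6 difference was -0.34 without H1703 Vehicle 2 (0.0547), -0.33 without HCC827 Vehicle 1 (0.0513) and -0.34 without H441 Vehicle 1 (0.0507).

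CD276 was lower in H460 than in HCC827 (-1.17) and H441 (-1.19), and lower in H1703 than in HCC827 (-1.58) and H441 (-1.61). Between the responsive lines, H460 minus H1703 was 0.42 (0.0451).

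H460 exceeded every other line in CD274, by 1.92 over H1703, 2.45 over HCC827 and 2.08 over H441, and in NT5E, by 3.64 over H1703, 4.83 over HCC827 and 3.71 over H441. NT5E also differed between H1703 and HCC827 (1.18) and between HCC827 and H441 (-1.12). PDCD1LG2 differed between H460 and H1703 (1.97, 0.0417), on 3 reads in H1703.

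H1703 was the low line for NECTIN2, with H460 minus H1703 at 1.19, H1703 minus HCC827 at -1.35 and H1703 minus H441 at -1.67. NECTIN2 also differed between H460 and H441 (-0.48, 0.0486). For CMTM6 the differences were 1.04 for H460 minus H1703, -0.76 for H1703 minus HCC827 and -1.07 for H1703 minus H441.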

How the results depend on the processing

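Of the counts of called genes under other settings 389 stayed within 1.5 times the value given and 23 did not. In HCC827 the count of 2 members became 1 with median centring, no filter, a stricter filter, a replicate block or voom, and 0 without trend and robust settings. In H441 the count of 3 became 1 without trend and robust settings and 0 when fitted on that line alone, and for the non-responsive lines 5 became 3 without trend and robust settings. With 1 library left out the counts were 4 to 6 in H460, 5 to 7 in H1703, 0 to 2 in HCC827, 1 to 5 in H441, 8 to 8 in the mean of 4 lines, 7 to 8 and 3 to 5 in the responsive and non-responsive lines, 4 to 6 between classes and 6 to 7 between classes in vehicle. For pairs they were 18 to 22 for responses and 35 to 37 for vehicle levels. For lists they were 13 to 15 for other ligands, 16 to 20 for transcription, 12 to 15 for stability, 10 to 13 for adenosine, 5 to 6 around CD47 and 6 to 7 around CD274.

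Signs changed only for values that had not passed. These were CD47 in HCC827 (-0.42 to 0.01 over left-out libraries, the highest without HCC827 Combo 2) and between classes (-0.21 to 0.01, without HCC827 Combo 1), PVR in H1703 (-0.12, median centring), NECTIN2 in H460 (-0.24 to 0.02, without H460 Combo 1) and HCC827 (-0.06 to 0.17, without HCC827 Combo 2), and CMTM6 in H460 (0.004 with quantile normalisation, and -0.11 to 0.11 with a library left out, 0.11 and 0.01 without H460 Combo 1 and Vehicle 2) and H441 (-0.0033 with quantile normalisation, and -0.09 to 0.13 with a library left out, -0.01 and -0.09 without H441 Combo 2 and Vehicle 1). In the mean of 4 lines they were CD226 (-0.44 to 0.36, with 0.36, 0.19 and 0.25 without HCC827 Vehicle 2, H441 Combo 1 and H441 Vehicle 2) and SIRPA (-0.09 with median centring, -0.04 with quantile normalisation, -0.02 with voom, and -0.02 to 0.06 with a library left out, of which -0.01, -0.0023 and -0.02 without H460 Vehicle 1, H1703 Vehicle 2 and HCC827 Combo 2). Their cause was not tested.

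Deviations of same-numbered libraries of a line from their group means correlated at 0.0136 to 0.0319 across genes. Over all 28 pairs of groups these correlations were -0.0218 to 0.0319, with H460 the highest. Such small values cannot show whether same-numbered libraries were cultured or processed together, so whether the numbers pair samples stays unknown. With a replicate block NECTIN2 passed in H441 (0.37, adjusted p = 0.0423), and CD274 in HCC827 did not (0.0562). With a replicate block within each line NECTIN2 passed in H441 (0.0479), and its vehicle difference between classes did not (0.18, 0.100).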
